A study of Homo sapiens with 4 samples.

Results

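Cells of HGC27, a human line established from a gastric cancer, were kept in DMEM lacking glucose, with fetal bovine serum and P.S. antibiotics, either without addition (no glucose, n = 2) or with 25 mM lactate for 24 h (lactate, n = 2), and total RNA was sequenced. All 4 libraries therefore come from cells without glucose, and the comparison is between cells with and without added lactate in that state. The sample labels give a time for the lactate libraries only. Added lactate and a possibly unequal time without glucose therefore cannot be told apart. Examined here are the transcripts of the mitochondrial genome, taken as every row of the deposited table whose gene name starts with MT and a hyphen. They number 37 of 60666 rows, made up of 13 mRNAs, 2 rRNAs and 22 tRNAs. Values are in TPM, a transcript's share of the library after division by its length, so depth is unknown and a change is always a change in share, and in bulk RNA fewer cells with a transcript and less of it per cell cannot be told apart.

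Each library had 23272 to 25764 rows above 0, and median-ratio size factors were 0.956 and 0.976 without and 1.02 and 1.07 with lactate. Most epithelial markers of the labelled gastric cancer cells were near 0: KRT18, KRT19 and EPCAM stayed at or below 0.92 TPM and CDH1 at or below 3.76 TPM. KRT8 rose from 2.08 and 1.87 to 6.07 and 6 TPM (adjusted p = 0.0328), and the mesenchymal marker VIM lay between 2747 and 2984 TPM. Of 16 markers of other stomach, blood and stromal cells, 13 stayed below 1 TPM in all libraries. DCN (162.1 to 213.1 TPM) and LUM (151.9 to 195.7 TPM) made up nearly all of their sum, which was 366.3 and 389.2 TPM without and 319.99 and 383.2 TPM with lactate; none of the 16 was called, and their part in the results was not tested.

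The mitochondrial genome is a circle that is copied into RNA from a promoter on each strand. The heavy-strand promoter gives a long precursor that carries both rRNAs, most tRNAs and nearly all mRNAs, whereas the light-strand promoter gives MT-ND6 and the remaining tRNAs. tRNAs lie between most of the longer genes, and their excision by RNase P and ELAC2 frees the RNAs on either side. The mRNAs encode core subunits of respiratory complexes I, III, IV and V, and the rRNAs build the mitochondrial ribosome that translates them. Genes of a shared precursor are copied together, and their steady-state levels also depend on processing, polyadenylation and decay.

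The junctions at which neighbouring members meet are shown first, since the values of adjacent genes are compared below. Sequences and positions are from GENCODE release 29 (GRCh38, chromosome M, plus strand), and capitals mark the bases that belong to both genes. MT-ATP8 and MT-ATP6 overlap by 46 bases, MT-ND4L and MT-ND4 by 7 bases, and MT-ATP6 and MT-CO3 by 1 base, so no tRNA separates the members of these pairs.
MT-ATP8 into MT-ATP6, chrM:8507-8592: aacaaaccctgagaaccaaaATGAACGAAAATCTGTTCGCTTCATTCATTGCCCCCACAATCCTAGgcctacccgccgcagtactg
MT-ND4L into MT-ND4, chrM:10740-10786: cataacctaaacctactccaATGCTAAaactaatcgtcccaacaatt
MT-ATP6 into MT-CO3, chrM:9187-9227: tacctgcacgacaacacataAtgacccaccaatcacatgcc

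By contrast, the rRNAs MT-RNR1 and MT-RNR2 are separated by the gene of the valine tRNA, MT-TV, which is printed whole because the uncalled and the called rRNA lie on either side of it.
MT-TV, chrM:1602-1670: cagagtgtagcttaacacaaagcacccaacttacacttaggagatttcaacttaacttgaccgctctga

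The 15 rRNAs and mRNAs were all tested, and the 22 tRNAs were listed at 0 in every library. With lactate, MT-RNR2, the 16S rRNA of the large ribosomal subunit, was called higher. MT-CO3, a core subunit of cytochrome c oxidase, and MT-ND1, a subunit of complex I, were called lower. The other 12 did not pass an adjusted p of 0.05. Over all 15051 tested rows, 6.59% were called, with 4.69% higher and 1.90% lower in lactate, against which the 3 of 15 members (1 higher, 2 lower) are to be read. Members lay on both sides of 0, with 6 above and 9 below, and the median log2 fold change of the 13 mRNAs was -0.26 beside 0.083 for all tested rows.

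**Figure D1:**
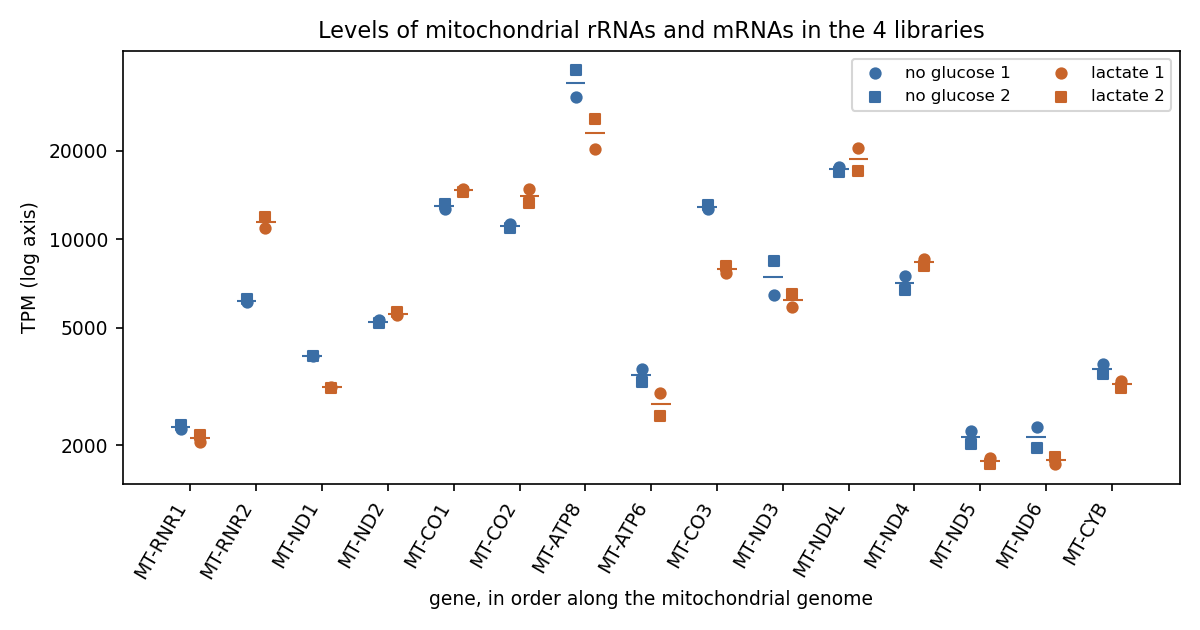
TPM on a log axis of the 15 mitochondrial rRNAs and mRNAs, in gene order, with 1 point per library (circle replicate 1, square replicate 2; blue no glucose, orange lactate) and a line at each group's mean. MT-RNR2 lies at 6103 and 6255 TPM in the no-glucose libraries and at 10944 and 11860.2 TPM in the lactate libraries, whereas MT-CO3 moves the other way.

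Several members were among the rows of highest TPM in the whole table. Without lactate the order by level was led by MT-ATP8 at 33855 ± 5010.15 TPM (SD, n = 2), MT-ND4L at 17265 ± 530.1 TPM, MT-CO1 at 12941 ± 352.4 TPM and MT-CO3 at 12899 ± 266.6 TPM. It ended with MT-RNR1, MT-ND6 and MT-ND5, all between 1958 and 2344 TPM. Of the 14 neighbouring steps in this order, 5 overlapped between libraries, those from MT-CO1 to MT-CO3, MT-ND3 to MT-ND4, MT-CYB to MT-ATP6, MT-RNR1 to MT-ND6 and MT-ND6 to MT-ND5. With lactate MT-ATP8 (22937 ± 3866 TPM) overlapped MT-ND4L (18731 ± 2357 TPM), MT-RNR2 moved from the eighth to the fifth place and MT-CO3 from the fourth to the seventh, where its libraries overlapped those of MT-ND4 in the sixth. MT-ATP8 and MT-ND4L are the shortest mRNAs, at 207 and 297 bases. MT-ATP8 shares its mRNA with MT-ATP6, and MT-ND4L with MT-ND4, and the longer gene of each pair had the lower TPM in all 4 libraries. TPM thus differed within 1 mRNA, so the order given is one of TPM and not of mRNA copies. The part of gene length in it was not tested.

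The rRNAs parted. MT-RNR2 (chromosome M, 1671 to 3229) was at 6103 and 6255 TPM without lactate and at 10944 and 11860.2 TPM with it. Both lactate libraries lay well above both others, and the means differed 1.85-fold (log2 fold change 0.88 ± 0.08 SE, adjusted p = 0.0244). MT-RNR1 (648 to 1601), the 12S rRNA of the small subunit, was at 2270.4 and 2344 TPM without lactate and at 2049.5 and 2165 TPM with it. Its groups did not overlap either, but the lactate libraries were the lower ones and the difference was not called (log2 fold change -0.13 ± 0.08, adjusted p = 0.317). MT-RNR2 therefore made up 72.9% and 72.7% of the summed rRNA TPM without lactate and 84.2% and 84.6% with it. Whether the libraries were selected for poly(A) or depleted of rRNA is not stated for them, and its part in the rRNA levels was not tested. Other structural RNAs, picked after their values were seen, did not move as 1 group. The 5.8S rRNA rows, which hold equal values, were at 46.2 and 23.1 TPM without and 20.2 and 49.6 TPM with lactate, and RN7SL1, the RNA of the signal recognition particle, at 289.9 and 277.2 against 270.4 and 304.1 TPM, so both overlapped. RN7SK, which holds a transcription elongation factor, was at 35.1 and 28.8 against 36.5 and 46.8 TPM and was not called, and RPPH1, the RNA of nuclear RNase P, at 3.55 and 3.53 against 1.9 and 0.77 TPM (log2 fold change -1.003 ± 0.294, adjusted p = 0.103). By contrast, RMRP, the RNA of RNase MRP, rose from 4.84 and 4.75 to 8.18 and 8.32 TPM (log2 fold change 0.67 ± 0.13, adjusted p = 0.0496).

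The ratio of MT-RNR2 to MT-RNR1 does not depend on the library's total. It was 2.69 and 2.67 in the no-glucose libraries and 5.34 and 5.48 in the lactate libraries, a log2 difference of 1.01. The exact permutation test gave p = 0.333, two-sided, the smallest value that 2 against 2 libraries allow. The replicates of a condition differed by far less than the conditions did.

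Complex IV was divided among its 3 mitochondrial subunits. MT-CO3 (9207 to 9990) was at 12711 and 13088 TPM without lactate and at 7703 and 8124 TPM with it. Both lactate libraries lay well below both others, the ratio of the means was 0.613, and the log2 fold change was -0.71 ± 0.07 (adjusted p = 0.0278). MT-CO2 (7586 to 8269), which accepts electrons from cytochrome c, was at 11280.5 and 10957 TPM and then at 14811 and 13291 TPM. All lactate values of MT-CO2 were the higher ones, with a log2 fold change of 0.34 ± 0.08 that was not called (adjusted p = 0.0760). MT-CO1 (5904 to 7445), the catalytic subunit, was at 12691 and 13190 TPM without and 14806 and 14517 TPM with lactate (log2 fold change 0.18 ± 0.07, adjusted p = 0.174). As a description with no test, since the pair was picked for its opposite directions, the ratio of MT-CO2 to MT-CO3 was 0.887 and 0.837 without and 1.92 and 1.64 with lactate.

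Both subunits of complex V, the ATP synthase, lay lower with lactate. MT-ATP8 (8366 to 8572) was at 30312 and 37398 TPM without lactate and at 20203 and 25670.3 TPM with it (log2 fold change -0.56 ± 0.16, adjusted p = 0.0933). MT-ATP6 (8527 to 9207), which forms part of the proton channel, was at 3627 and 3279.9 TPM and then at 2997 and 2506 TPM (log2 fold change -0.33 ± 0.11, adjusted p = 0.139). Neither pair of groups overlapped, and neither difference was called.

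Complex I, which takes 7 of the 13 mRNAs, moved unevenly. MT-ND1 (3307 to 4262) was at 4010.2 and 4027 TPM without and 3161 and 3117 TPM with lactate. The replicates of MT-ND1 lay close together (SD 11.6 and 30.8 TPM) and the groups were clearly apart, at a log2 fold change of -0.36 ± 0.07 (adjusted p = 0.0496, just under the threshold). MT-ND2 (4470 to 5511) and MT-ND4 (10760 to 12137) lay slightly higher in both lactate libraries, with log2 fold changes of 0.09 ± 0.07 and 0.24 ± 0.09. MT-ND5 (12337 to 14148) lay lower in both, at 2235 and 2014 TPM against 1805 and 1731 TPM (-0.26 ± 0.09, adjusted p = 0.126). The groups of MT-ND3 (10059 to 10404) and MT-ND4L (10470 to 10766) overlapped. MT-ND6 (14149 to 14673, minus strand) was at 2307 and 1958 TPM without and 1723 and 1825 TPM with lactate (-0.26 ± 0.10, adjusted p = 0.181). Whether counting used strand is not given in the sources used here, so RNA of MT-ND6 and of the strand opposite to it may not have been told apart.

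MT-CYB (14747 to 15887), cytochrome b of complex III, was at 3781 and 3478 TPM without and 3302 and 3136 TPM with lactate, a log2 fold change of -0.17 ± 0.08 (adjusted p = 0.240). In all, the groups did not overlap in 13 of the 15 tested members, 5 with lactate higher and 8 with lactate lower, beside 58.4% of all tested rows. An unadjusted p under 0.05 was reached by 9 of 15 members and by 4249 of all 15051 rows.

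**Figure D2:**
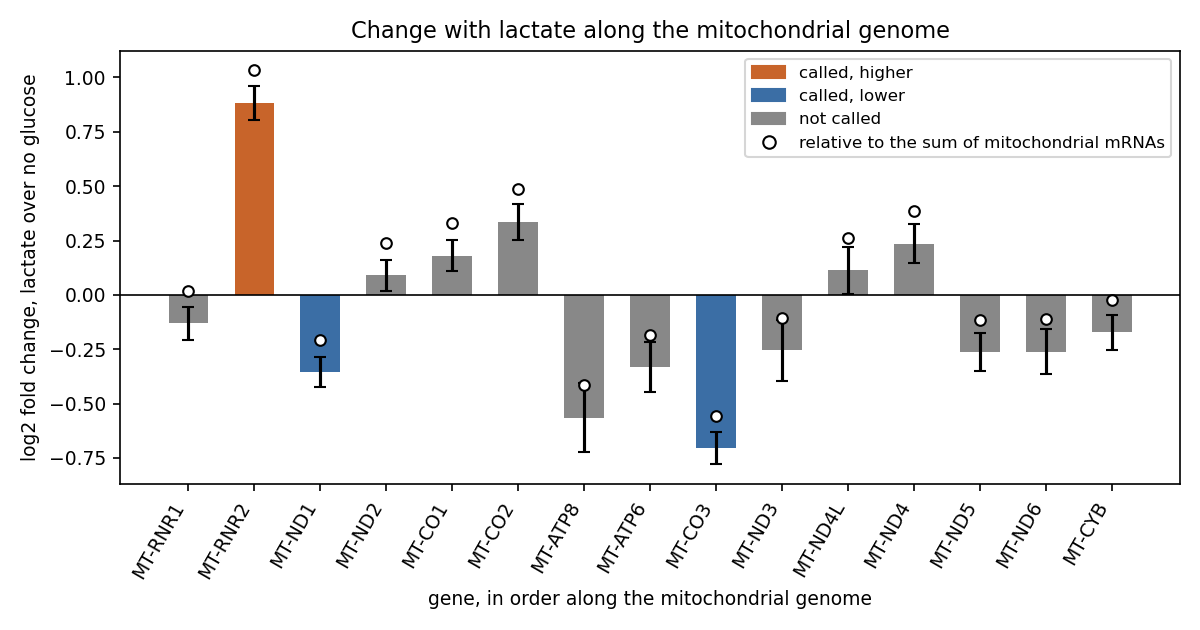
Log2 fold change of each member, lactate over no glucose, on log2(TPM + 1), with bars for the fitted value, whiskers for ± 1 SE, and colour for called members. White circles give the same difference relative to the sum of the 13 mRNAs in each library. Fitted values range from 0.88 for MT-RNR2 to -0.71 for MT-CO3, and 12 of the 15 are not called.

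Read along the mitochondrial genome, some neighbouring members had the same sign and others did not. After MT-RNR1 below 0, MT-RNR2 above 0 and MT-ND1 below 0 came MT-ND2, MT-CO1 and MT-CO2 between 0.09 and 0.34, then MT-ATP8, MT-ATP6, MT-CO3 and MT-ND3 between -0.71 and -0.26. MT-ND4L and MT-ND4 followed at 0.11 and 0.24, and MT-ND5, MT-ND6 and MT-CYB between -0.26 and -0.17. MT-ND6 belongs to the light-strand transcript and is placed here by position only. The 15 genes, 12 of them not called, thus formed 7 stretches, a reading made after the values were seen and given with no test. Whether a random order would give as few stretches was not tested. Both members of each overlapping pair shown above (MT-ATP8 with MT-ATP6, MT-ND4L with MT-ND4, MT-ATP6 with MT-CO3) had the same sign, although MT-ND4L went to -0.017 without the first lactate library. Distance from the promoter did not order the changes: across the 12 heavy-strand mRNAs, which are not independent, Pearson's r of log2 fold change with gene start was -0.078 and Spearman's rho 0.063. Without MT-ATP8 and MT-ND4L, r was -0.15.

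Some signs depend on what a value is set against. Median-ratio scaling lowered the log2 fold changes of all rows by about 0.10, which left MT-RNR2 at 0.77, MT-CO3 at -0.82 and MT-ND1 at -0.47, all still called, and took MT-ND2 to -0.021. Set against the sum of the 13 mRNAs of its own library, MT-RNR2 was at 1.03, MT-CO3 at -0.56, MT-CO2 at 0.49 and MT-ND1 at -0.21. By this measure MT-RNR1 turned from below 0 to 0.02. MT-ATP8 alone made up 25.3% and 29.5% of that sum without and 18.2% and 23.1% with lactate. Values set against the sum thus depend on this short mRNA, and its part in them was not tested. The directions of MT-RNR2, MT-CO2, MT-CO3 and MT-ND1 were the same in these forms, but the sizes were not. Under median-ratio scaling MT-CO2 was at 0.22 and not called (adjusted p = 0.254 in limma).

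The mRNAs also differ in how they end. In 6 of the 13 the gene as annotated stops within the stop codon, which is completed when a poly(A) tail is added. Both called mRNAs are of this kind, and their last 30 bases are shown because the encoded part of the stop codon, in capitals, is only part of a codon.
MT-CO3 3′ end, chrM:9961-9990: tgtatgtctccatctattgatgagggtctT
MT-ND1 3′ end, chrM:4233-4262: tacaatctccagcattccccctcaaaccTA

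The 6 mRNAs with such an end had a median log2 fold change of -0.21, with 2 above and 4 below 0. The 7 whose annotated gene ends on a whole codon, judged by length alone, had one of -0.26, with 3 above and 4 below. Whether the last codon of each is a stop codon was not examined. These 7 include MT-ATP6, whose last base is also the first base of MT-CO3. That base cannot be in both RNAs once they are cut apart, so the class of MT-ATP6 is uncertain. Classed by the annotation, the kind of ending did not set the groups apart in these values.

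As a share of the library, mRNAs of the mitochondrial genome took 12.045% and 12.7% of all TPM without lactate and 11.1% and 11.2% with it, a difference of -1.22 percentage points. The lactate libraries were both lower, and the exact permutation test gave its smallest possible p of 0.333, two-sided. MT-ATP8 carried most of this: it made up 25.3% and 29.5% of the mRNA sum without and 18.2% and 23.1% with lactate. Without MT-ATP8 the mRNA share was 9.00007% and 8.96% against 9.11% and 8.596%, and the groups overlapped (exact permutation p = 1). The summed rRNAs moved the other way, from 0.841% and 0.864% to 1.304% and 1.409% of the library. MT-RNR2 alone carried this rise, since MT-RNR1 was lower in both lactate libraries. The ratio of summed rRNA to summed mRNA was 0.0698 and 0.0679 without and 0.117 and 0.126 with lactate, a log2 difference of 0.82 (exact permutation p = 0.333).

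The other ratios had overlapping groups. MT-ATP8 over MT-ATP6 was 8.36 and 11.4 without and 6.74 and 10.2 with lactate, a spread within each condition larger than the difference between them. MT-ND4L over MT-ND4 was 2.35 and 2.52 against 2.37 and 2.10, and MT-ND6 over the sum of the heavy-strand mRNAs was 0.0196 and 0.0157 against 0.0158 and 0.0167. Their exact permutation p-values were 0.667, 0.667 and 1.

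**Figure D3:**
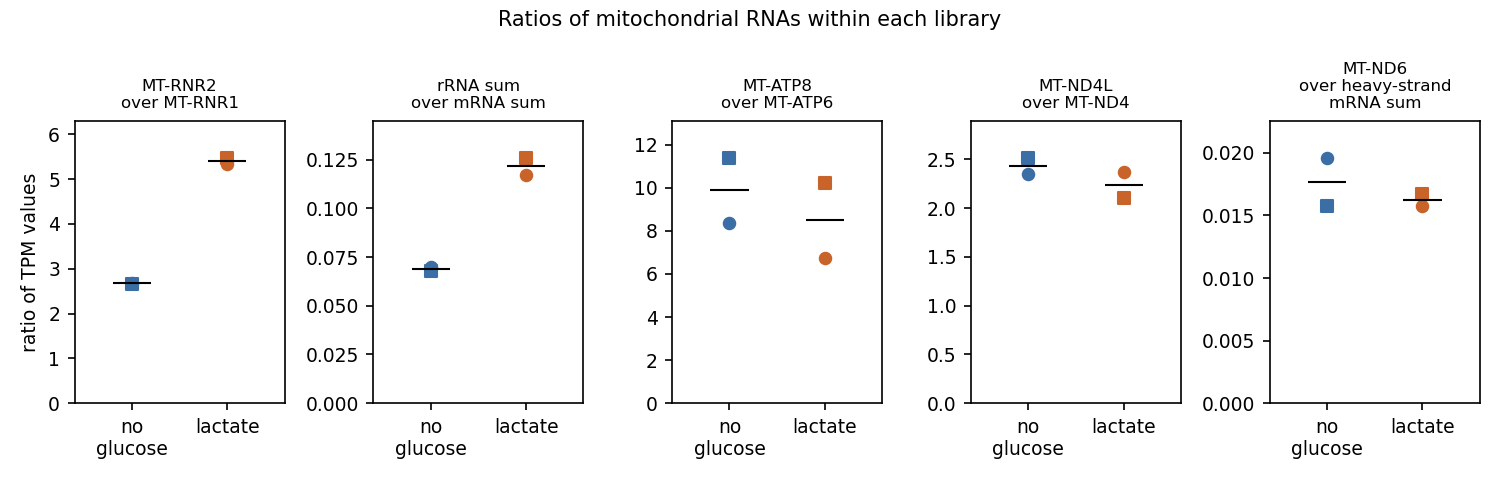
Ratios of TPM values within each library for 5 sets of mitochondrial RNAs, with 1 point per library (circle replicate 1, square replicate 2; blue no glucose, orange lactate), a line at each mean, and axes from 0. MT-RNR2 over MT-RNR1 goes from 2.69 and 2.67 to 5.34 and 5.48, and the groups of the last 3 ratios overlap.

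The 22 tRNAs give no information on lactate here. All of them, 14 on the heavy-strand and 8 on the light-strand transcript, were listed at 0 in the 4 libraries. Their genes span 59 to 75 bases. Of 1158 other rows annotated at no more than 75 bases, 2 were above 0 in any library, so listings of 0 were the rule for genes of this size and do not show that tRNAs were absent.

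Stretches of the mitochondrial genome also exist as copies in nuclear chromosomes, and reads from near-identical sequence can be divided between both by the estimate. The table holds 415 rows named as such copies, of which 13 passed the filter. None was called by limma, and 3 had an unadjusted p under 0.05. MTRNR2L1 (chromosome 17, 22523111 to 22524663), a copy of MT-RNR2 with 88.3% identity, was at 95.2 and 70.4 TPM without and 138.6 and 175.0 TPM with lactate (log2 fold change 0.92 ± 0.19, adjusted p = 0.0531). It stayed between 1.13% and 1.56% of MT-RNR2 in all 4 libraries. The 60 aligned bases that differ most between both are shown, with the 10 differing bases in capitals, since the longest run without a difference was also 60 bases.
MT-RNR2, chrM:2141-2200: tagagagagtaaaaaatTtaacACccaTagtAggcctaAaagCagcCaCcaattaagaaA
MTRNR2L1, chr17:22523568-22523627: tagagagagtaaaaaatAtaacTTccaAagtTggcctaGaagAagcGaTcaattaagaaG

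MTATP6P1 (chromosome 1, 633696 to 634376), a copy of MT-ATP6 with 98.5% identity and identical runs of up to 141 bases, varied most. It was at 645.7 and 235.3 TPM without and at 191.3 and 39.2 TPM with lactate, or 17.8%, 7.17%, 6.39% and 1.56% of MT-ATP6. Replicates differed more than 2-fold in each condition, and the log2 fold change of -2.15 ± 0.83 was not called (adjusted p = 0.170). It went from -3.28 without the first to -1.02 without the second lactate library, and was -1.43 without the first no-glucose library. MTCO1P12 (chromosome 1, 631074 to 632616), with 98.6% identity to MT-CO1, was at 638.8 and 818.5 TPM without and 696.95 and 789.3 TPM with lactate, and its groups overlapped. MTND6P3, MTND3P22 and MTND2P28 were at or below 28.7 TPM. When all copies were added to their mitochondrial gene, an alternative chosen after seeing the data, MT-RNR2, MT-CO3 and MT-ND1 were again the 3 called members, and MT-ATP6 went from -0.33 to -0.44 (adjusted p = 0.133).

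**Figure D4:**
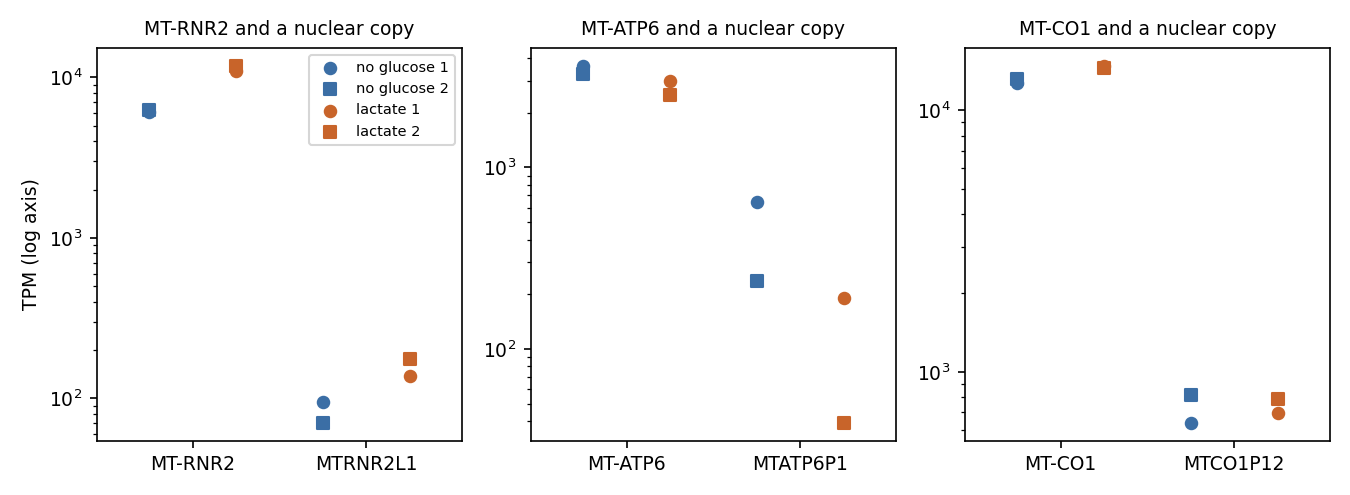
TPM on log axes of MT-RNR2, MT-ATP6 and MT-CO1 and of 1 nuclear copy of each, with 1 point per library (circle replicate 1, square replicate 2; blue no glucose, orange lactate; axes differ between panels). MTRNR2L1 and MT-RNR2 are higher in both lactate libraries, whereas MTATP6P1 ranges from 39.2 to 645.7 TPM.

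Nuclear genes that transcribe, process, modify, stabilize and copy the mitochondrial genome were lower rather than higher where they were called. Of 50 such genes, all tested, 5 fell, none rose and 45 did not pass, beside 1.90% of all tested rows called lower. The list was chosen with earlier results of these data known. Calls were also more common among rows of higher level. With a filter at 5 TPM, which all 50 pass, 12.8% of tested rows and 7 of the 50 were called in either direction. TFAM, which packages mitochondrial DNA and starts its transcription, was at 32.6 and 33.9 TPM without and 18.2 and 21.1 TPM with lactate. Both lactate libraries lay lower, at a log2 fold change of -0.73 ± 0.12 (adjusted p = 0.0391). TWNK, the helicase that unwinds mitochondrial DNA, fell from 34.8 and 32.5 to 20.8 and 19.7 TPM (-0.70 ± 0.11, adjusted p = 0.0363). MTERF4, which takes part in assembling the large mitochondrial ribosomal subunit, fell by 0.61 on the log2 scale, MRM2, which methylates the 16S rRNA, by 0.60, and PUS1, which makes pseudouridine in tRNAs, by 0.59, with adjusted p between 0.0419 and 0.0456.

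The other named factors did not pass the test. TFB2M, which opens the promoter with the polymerase, had a log2 fold change of -0.52 ± 0.12 (adjusted p = 0.0632), and LRPPRC and SLIRP, partners that bind mitochondrial mRNAs, had -0.32 and -0.30. The RNA polymerase POLRMT was at 54.9 and 41.1 TPM without and 62.7 and 47.8 TPM with lactate, and the elongation factor TEFM at 19.3 and 24.5 against 12.5 and 22.1 TPM. Both of these overlapped between conditions. Of the 50 genes, 41 had a log2 fold change below 0, against 6138 of all 15051 tested rows, and the median was -0.20. By the role assigned in the list, 2 of 9 transcription genes (TFAM and MTERF4), 2 of 14 RNA modification genes and 1 of 6 genes of DNA copying fell. MTERF4 was listed under transcription with the other MTERF genes, although its part in ribosome assembly, given above, is another role. None of 6 processing and 15 stability genes was called by limma, of which 0 and 2 had an unadjusted p under 0.05. All 14 RNA modification genes lay below 0, with a median of -0.32.

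**Figure D5:**
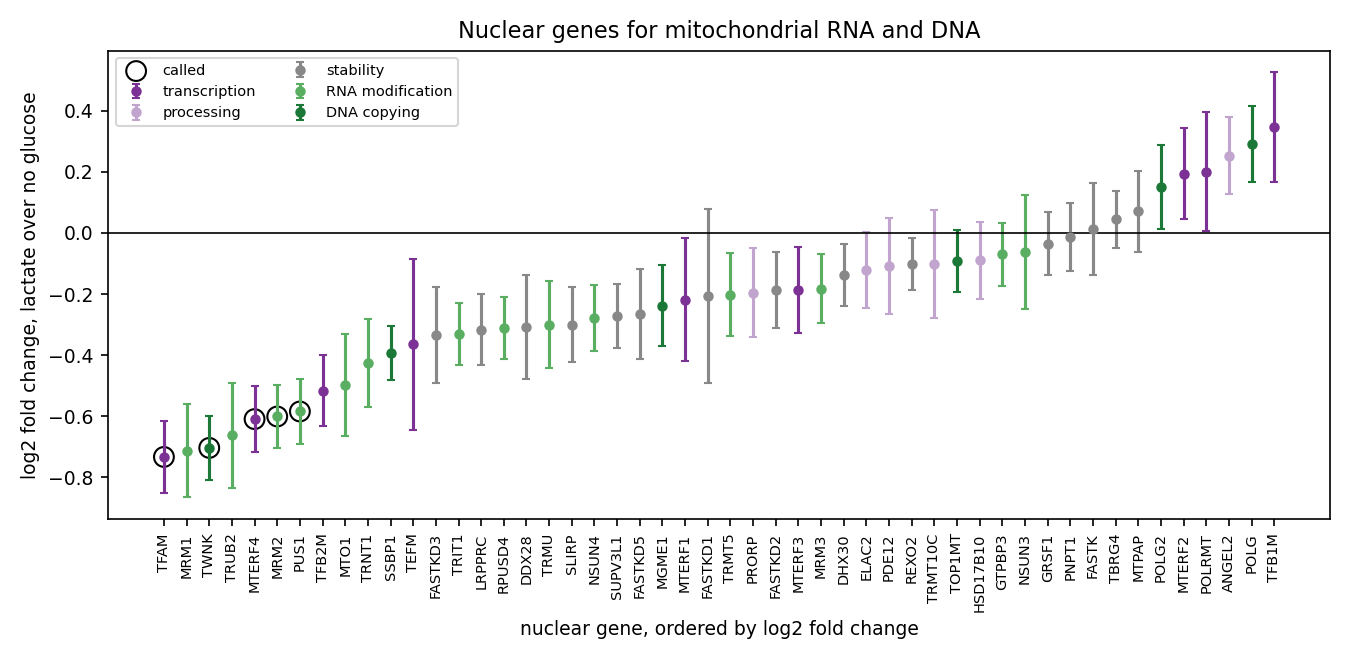
Log2 fold change, lactate over no glucose, of 50 nuclear genes for mitochondrial RNA and DNA, ordered by value, with whiskers for ± 1 SE, colour for role and rings around called genes. The 5 ringed genes, all between -0.73 and -0.59, are TFAM, TWNK, MTERF4, MRM2 and PUS1, and 9 genes lie above 0.

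The calls rest on few libraries, as did those of nearly all rows: 0 to 10 rows were called in any fit with 3 libraries and 0 of 30146 without a filter, against 992 of 15051. MT-RNR2, MT-CO3 and MT-ND1 lost their calls in each fit with 3 of the libraries. They also lost them in limma when no filter on low values was used (adjusted p = 0.167, 0.238 and 0.307). The 5 called nuclear genes lost theirs in the same fits. Over all the fits run, median-ratio scaling among them, MT-RNR2 had log2 fold changes between 0.77 and 0.94. Those of MT-CO3 lay between -0.82 and -0.67 and those of MT-ND1 between -0.47 and -0.35. Relative to the mRNA sum, where no fit was made, the values were 1.03, -0.56 and -0.21.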

How the data were processed

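RNA of 4 HGC27 libraries was analysed, 2 per condition as given by the titles. The deposited values are TPM, 2 decimals; the submitters' processing notes name RSEM 1.3.3 and build hg38. Library kit, aligner, annotation and strand setting: not given in the sources used here. Depth is unknown and no counting interval was computed. Values were transformed as log2(TPM + 1), the 15051 rows averaging 1 TPM or more were kept, and conditions were compared with limma 3.58.1 in R 4.3.3, with a variance prior following mean expression, two-sided, with Benjamini-Hochberg adjustment over all tested rows. Fold changes are lactate over no glucose and understate the change of low genes. Single values per library were compared with an exact permutation test. Labels do not say whether replicates were separate cultures, and p-values then reflect the spread among these 4 samples alone, possibly a technical one.

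Members and lists were chosen with earlier results of these data known. Named are all mitochondrial mRNAs and rRNAs, called nuclear factors with 6 fixed ones (POLRMT, TFAM, TFB2M, TEFM, LRPPRC, SLIRP), and the 6 most abundant nuclear copies. Positions and sequences are from GENCODE release 29 (GRCh38, the assembly of hg38). Identity of a copy is 1 minus edits per base of the shorter sequence. Alternatives were a pseudocount of 0.1, a filter at 5 TPM or none, fits without 1 library, the replicate number as a block, median-ratio scaling, protein-coding and mitochondrial rows only, no trend in the prior, an adjusted p of 0.01, and, added after seeing the data, nuclear copies summed into their mitochondrial gene.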

Additional observations from a re-analysis of the deposited data

How the results depend on the processing

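Of the 3 mitochondrial calls (1 higher, 2 lower) and 5 among the nuclear factors (all lower), 0 remained without a filter, where 2 of 15 and 16 of 50 had an unadjusted p under 0.05 in limma, without the trend (5 and 12), and at an adjusted p of 0.01. Over all rows, 992 of 15051 calls became 0 of 30146, 4 of 15051 and 1 of 15051, so these losses are not particular to the lists. With 1 library left out, when the lone sample is assumed to vary like the other condition, the range was 0 to 0 for both, with 4 to 7 members and 7 to 19 factors at an unadjusted p under 0.05; 0 to 10 rows were called in all, and fewer samples enter these fits. Protein-coding and mitochondrial rows gave 5 members (2 higher) and 9 factors, where fewer rows are tested, and a 5 TPM filter gave 4 members (2 higher); over all rows 17.0% and 12.8% were called, against 6.59%. MTRNR2L1 became the 1 called copy, higher, with that filter, with protein-coding rows and with a pseudocount of 0.1. The median of the mRNAs was -0.37 with median-ratio scaling, -0.11 relative to their own sum, and between -0.23 and -0.14 with 1 library left out, the highest without the first no-glucose library. The mRNA share differed by -0.27 percentage points without MT-ATP8 and MT-ND4L, and between -1.56 and -0.89 with 1 library left out. The log2 fold changes that turned, none of them called, were those of MT-ND2 (-0.021) and MTCO1P12 (-0.074) under median-ratio scaling, MT-RNR1 (0.018) relative to the mRNA sum, and, with 1 library left out, MT-ND4L (-0.017 to 0.24), POLRMT (-0.0029 to 0.41), TEFM (-0.75 to 0.024) and MTCO1P12 (-0.14 to 0.22). Where no construction is named, the cause was not tested.

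The labels do not say whether same-numbered libraries belong together. Deviations of same-numbered libraries correlated at 0.035 over 15051 rows, a value over all rows that cannot settle this for single members. A replicate block gave 3 members, with MT-ATP8 in place of MT-ND1 (adjusted p = 0.0505), 9 factors, all lower, and 1 lower copy, MTATP6P1, while 8.02% of all rows were called.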
